A study of Mus musculus with 6 samples.

Results

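The 28 genes described here encode enzymes of cholesterol and fatty acid synthesis and the regulators of both pathways. They were taken by symbol from the deposited RNA-seq matrix: the mevalonate enzymes (7 genes), the sterol enzymes from squalene synthase onward (11), the sterol regulators with 1 sterol carrier (5), and the lipogenic enzymes (5). Each of the 28 matched 1 locus of the 23793 in the table, and all 28 were among the 13612 loci that were tested, those reaching 1 FPKM or more in 3 or more libraries. FPKM is a read level scaled for transcript length and library size.

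The libraries came from cerebellum on postnatal day 0. The 3 cKO libraries are labelled Zeb2 f/f; hGFAP-cre, and the 3 control libraries Zeb2 f/+; hGFAP-cre, so both groups carry Cre and at least 1 floxed allele. The product of Zeb2 is a zinc finger protein that binds DNA. The human GFAP promoter drives Cre in neural progenitors and glia, and their descendants inherit the deletion. Cells whose lineage never expressed Cre keep the gene. The labels do not say that each library came from a separate animal, and p-values therefore measure the spread between these libraries, which may be technical.

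Cholesterol is built from acetyl-CoA through mevalonate, isoprenoids and squalene, and the same acetyl-CoA feeds fatty acid synthesis. When membrane sterol is low, SCAP carries the SREBP transcription factors from the endoplasmic reticulum to the Golgi, where proteases release the active form, and INSIG proteins hold SCAP back when sterol is high. The developing brain makes its own cholesterol, since lipoproteins do not cross the blood-brain barrier, and glia that form membrane use both pathways heavily.

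Zeb2 stood at 6.19, 3.89 and 5.81 FPKM in cKO 1, 2 and 3, against 11.4, 9.52 and 7.995 FPKM in control 1, 2 and 3. The groups did not overlap, with a log2 fold change of -0.77 (SE 0.18; exact two-sided permutation p = 0.1, the smallest that 3 against 3 libraries allow; limma adjusted p = 0.107, or 0.0457 with small-RNA loci left out). The genotypes also differed completely in sex-linked transcripts: Xist averaged 144.0 ± 3.05 FPKM in cKO and 0.394 ± 0.105 FPKM in control libraries, and the Y-linked Eif2s3y 0.0766 ± 0.0435 and 35.8 ± 1.36 FPKM (SD, n = 3 each). Sex and genotype therefore cannot be told apart here. Summed FPKM ran from 497542 (cKO 1) to 524474 (control 1) per library, and the sources used here do not give read numbers. Pearson correlations across tested loci were 0.952 to 0.959 within groups and 0.942 to 0.957 between them, across loci, which are not independent replicates, and cKO 3 correlated more with control 1 and control 3 than with the other cKO libraries. The defining transcripts of cerebellar cells were present, with Pcp2 of Purkinje cells at 154, 148 and 149 FPKM in cKO and 132, 142 and 166 FPKM in control libraries.

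None of the 28 genes passed the threshold, an adjusted p of at most 0.05 in limma with Benjamini-Hochberg adjustment over all 13612 loci. Across the tested loci 0.242% passed as higher in cKO and 0.331% as lower, rates at which 28 genes would mostly hold no call. Before adjustment, 3 of the 28 had p under 0.05 in the higher direction (Scd1, Hmgcs1 and Msmo1) against 7.82% of all loci, and 1 in the lower direction (Srebf1) against 9.79%. Estimates lay close to 0. Log2 fold changes, cKO minus control, ran from -0.18 (Ebp) to 0.42 (Scd1) with a median of 0.05, beside a median of -0.01 over all loci tested. Scd1 alone exceeded 0.2 in size, where 17.5% of all tested loci did. The 95% interval of the fold change lay wholly between -0.3 and 0.3 for 21 of the 28 genes (75.0%), against 55.7% of all tested loci.

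**Figure D1:**
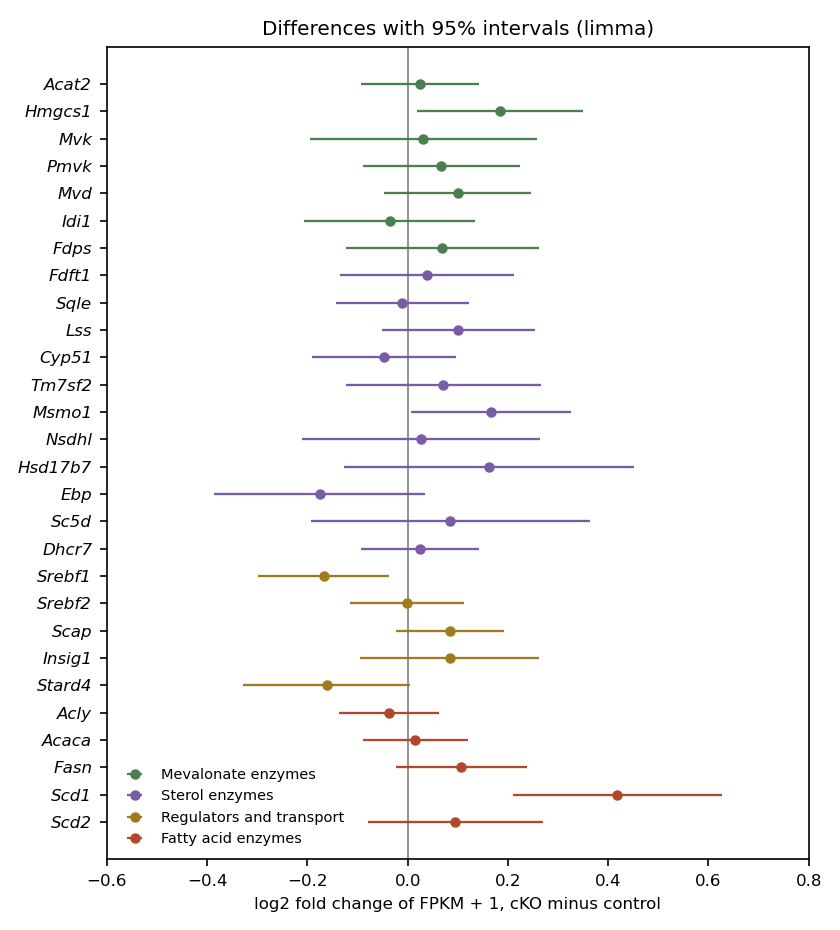
Log2 fold change of FPKM + 1 (x axis, cKO minus control) for each of the 28 genes (rows, coloured by role), with limma's 95% interval as a horizontal line. Intervals of 4 genes leave out 0 before any adjustment, those of Hmgcs1, Msmo1 and Scd1 above it and that of Srebf1 below it, and Scd1 at 0.42 is the farthest from 0.

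By sign alone, 20 of the 28 estimates were above 0 and 8 below, where 47.0% of all tested loci were above. The sum over the 28 genes was 1507, 1517 and 1563 FPKM in cKO 1, 2 and 3, against 1505, 1416 and 1451 FPKM in control 1, 2 and 3. All cKO sums lay above all control sums, with the lowest cKO sum and the highest control sum almost level. Scd2 (mean 328 FPKM) and Hmgcs1 (mean 185 FPKM) weigh most in these sums, so their order does not describe the 28 genes alike. Of single genes, every cKO value lay above every control value for 5 genes (Scd1, Hmgcs1, Msmo1, Fasn and Scap), against 10.3% of all tested loci, and below it for 3 (Srebf1, Stard4 and Acly), against 13.6%. The remaining 20 overlapped. With 3 libraries a group, no exact permutation test of a single gene can give less than 0.1.

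Levels differed far more between the genes than between the genotypes. Averaged over the 6 libraries, Scd2 was the most abundant at 328 FPKM, followed by Hmgcs1 at 185 FPKM, and Hsd17b7 was the least abundant at 7.49 FPKM. The median of the 28 was 32.6 FPKM, against 13.0 FPKM over all tested loci. The pooled within-group coefficient of variation was 5.86% at the median, lowest for Acly (1.08%) and highest for Hsd17b7 (14.1%), so the differences below are read against a spread of a few percent of the mean.

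**Figure D2:**
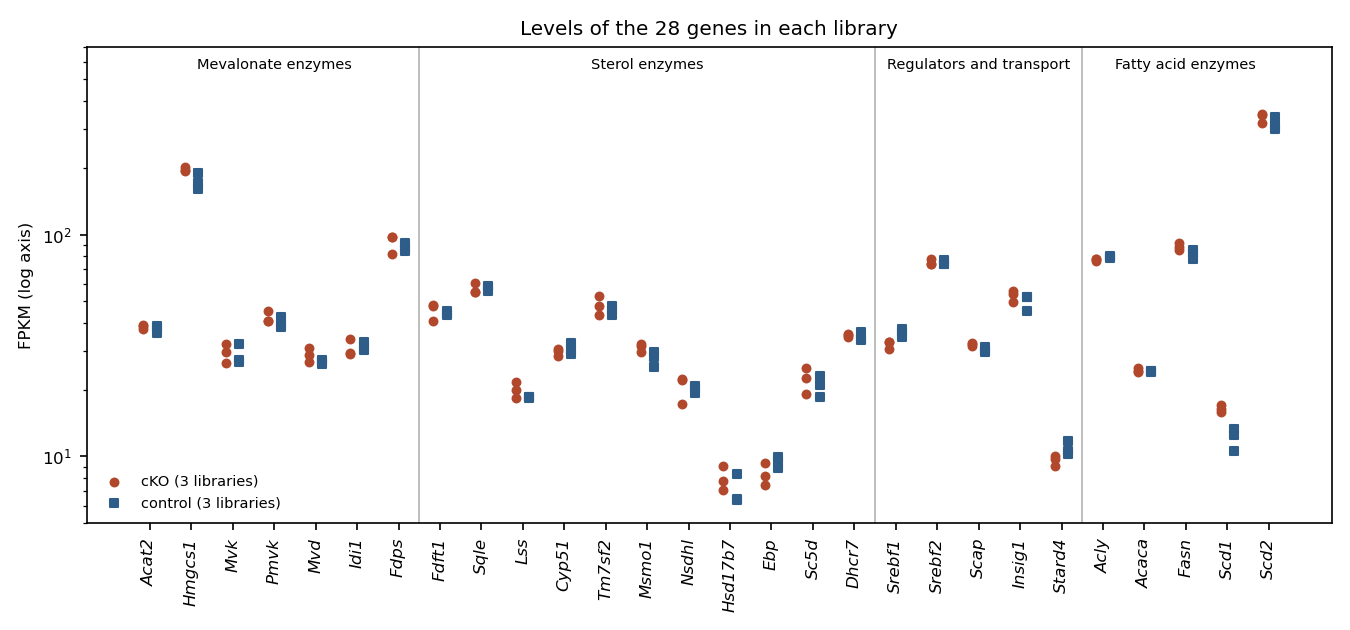
FPKM in each library (y axis, log scale) for the 28 genes, ordered by role, with cKO libraries as circles left of the control libraries as squares. Scd2 lies near 328 FPKM and Hsd17b7 near 7.49 FPKM, and for 20 genes the circles and squares overlap.

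Among the mevalonate enzymes, Hmgcs1 stood out. It encodes the cytosolic HMG-CoA synthase, which commits acetyl units to the pathway (GRCm38 chromosome 13, 119690379 to 119708260, plus strand). Hmgcs1 was at 196, 193 and 201 FPKM in cKO 1, 2 and 3, against 189, 161 and 170 FPKM in control 1, 2 and 3. All cKO libraries lay above all controls, with a gap of 4.59 FPKM between cKO 2 and control 1. Its log2 fold change was 0.18 (SE 0.07, 95% interval 0.018 to 0.35), and the limma adjusted p was 0.248.

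The other mevalonate enzymes overlapped between the groups. Acat2, which joins acetyl-CoA units, averaged 38.4 ± 0.892 FPKM in cKO and 37.7 ± 1.46 FPKM in control libraries (SD, n = 3 each, as for all means here). The kinases Mvk and Pmvk act in turn on mevalonate and phosphomevalonate. They averaged 29.3 ± 2.85 and 42.1 ± 2.65 FPKM in cKO, against 28.6 ± 2.91 and 40.1 ± 2.30 FPKM in controls. Mvd, the decarboxylase that makes isopentenyl diphosphate, averaged 28.7 ± 2.05 FPKM in cKO and 26.7 ± 0.536 FPKM in controls. Idi1, the isomerase of that product, was at 29.0, 29.2 and 33.8 FPKM in cKO 1, 2 and 3 and at 32.6, 30.1 and 31.5 FPKM in control 1, 2 and 3, with cKO 3 above every control. Fdps, farnesyl diphosphate synthase, was at 81.9, 97.7 and 97.6 FPKM in cKO 1, 2 and 3, against 84.6, 86.8 and 91.8 FPKM in control 1, 2 and 3. For Fdps cKO 1 was the lowest of the 6 libraries while cKO 2 and cKO 3 were the highest. Adjusted p over these 6 genes lay between 0.453 and 0.899 (limma).

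In the sterol branch Msmo1 was the gene with the smallest p. It encodes the C4 methyl sterol oxidase (GRCm38 chromosome 8, 64718139 to 64733792, minus strand). Msmo1 was at 31.5, 29.7 and 32.1 FPKM in cKO 1, 2 and 3, against 29.5, 25.4 and 28.002 FPKM in control 1, 2 and 3. The groups touched, with cKO 2 just above control 1, and the log2 fold change was 0.17 (SE 0.07, 95% interval 0.0058 to 0.33, limma adjusted p = 0.270).

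Hsd17b7 and Ebp had estimates of similar size on opposite sides of 0. Hsd17b7, a sterol ketoreductase, was at 7.06, 7.77 and 9.06 FPKM in cKO 1, 2 and 3, against 8.30, 6.396 and 6.38 FPKM in control 1, 2 and 3, a difference of 0.16 (SE 0.12, limma adjusted p = 0.540) in which control 1 sat among the cKO values. Ebp, the sterol delta isomerase, was at 7.40, 8.13 and 9.33 FPKM in cKO 1, 2 and 3, against 9.96, 9.52 and 8.89 FPKM in control 1, 2 and 3. For Ebp cKO 3 lay above control 3, and the log2 fold change was -0.18 (SE 0.09, limma adjusted p = 0.365). Ebp and Nsdhl, a sterol dehydrogenase at 20.6 ± 2.84 FPKM in cKO and 20.05 ± 0.725 FPKM in controls, lie on the X chromosome, beside the difference in Xist given above.

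The remaining sterol enzymes overlapped between the genotypes, with the widest interval that of Sc5d, -0.19 to 0.36 on the log2 scale. Fdft1, squalene synthase, averaged 45.4 ± 4.21 FPKM in cKO and 44.1 ± 0.958 FPKM in controls. Sqle, squalene epoxidase and a rate-limiting step, was at 54.8, 55.3 and 60.5 FPKM in cKO 1, 2 and 3 and at 58.6, 55.5 and 57.8 FPKM in control 1, 2 and 3. The 95% interval of the Sqle difference ran from -0.14 to 0.12 on the log2 scale. Lss, lanosterol synthase, averaged 19.96 ± 1.57 FPKM in cKO and 18.5 ± 0.181 FPKM in controls, and Cyp51, which removes the first methyl group of lanosterol, 29.5 ± 1.15 and 30.6 ± 1.88 FPKM. The locus of Tm7sf2, a sterol reductase, averaged 48.0 ± 4.95 FPKM in cKO and 45.5 ± 2.12 FPKM in controls. It is named Tm7sf2,Vps51 in the table, so its value is not that of Tm7sf2 alone, and the share of Vps51 is not known. Sc5d, a desaturase of the last steps, averaged 22.2 ± 3.03 FPKM in cKO and 20.9 ± 2.36 FPKM in controls. Dhcr7, the reductase that makes cholesterol from 7-dehydrocholesterol, averaged 35.2 ± 0.503 FPKM in cKO and 34.6 ± 1.52 FPKM in controls. Adjusted p over these 7 genes lay between 0.464 and 0.945, and that of Nsdhl was 0.923 (limma).

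The promoters of Hmgcs1 and Msmo1 are shown because these were the 2 sterol synthesis enzymes among the 28 with the smallest p. Each is 300 bases of RefSeq sequence on build GRCm38.p6, from 250 bases before to 50 after the annotated start, read in the direction of transcription. Capitals mark the CCAAT box (CCAAT, or its reverse complement ATTGG) and the sterol regulatory element, searched as TCACNCCAC on both strands.
Hmgcs1, chr13:119690101-119690400, plus strand: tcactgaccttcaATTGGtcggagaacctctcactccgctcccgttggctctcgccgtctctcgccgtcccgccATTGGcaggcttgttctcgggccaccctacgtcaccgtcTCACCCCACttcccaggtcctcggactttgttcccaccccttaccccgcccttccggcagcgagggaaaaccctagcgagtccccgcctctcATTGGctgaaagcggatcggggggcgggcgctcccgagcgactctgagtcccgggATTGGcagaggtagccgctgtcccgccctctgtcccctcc
Msmo1, chr8:64733529-64733828, minus strand: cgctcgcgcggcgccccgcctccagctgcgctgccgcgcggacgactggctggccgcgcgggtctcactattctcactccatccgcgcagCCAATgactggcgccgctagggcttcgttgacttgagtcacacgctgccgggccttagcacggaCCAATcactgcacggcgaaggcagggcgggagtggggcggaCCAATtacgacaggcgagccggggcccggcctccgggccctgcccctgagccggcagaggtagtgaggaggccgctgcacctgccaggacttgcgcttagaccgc

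Hmgcs1 held the sterol element 137 bases before its start and 4 CCAAT boxes, and Msmo1 held 3 CCAAT boxes and no match to the sterol element as spelled. CCAAT boxes bind NF-Y, a known partner of SREBPs at sterol genes. Of the 28 genes, 22 had an entry in the promoter table (not Fdps, Fdft1, Sqle, Stard4, Scd1 or Scd2), with 28 windows between them because 4 genes had more than 1. A CCAAT box stood in 19 of the 22 (86.4%), against 41.1% of the 27025 genes in the table and 43.0% of the 10137 of them that were tested here. The GC box GGGCGG stood in 19 of the 22, against 38.2% of all genes and 69.9% of tested genes. The E-box CACGTG stood in 5 (22.7%), against 8.09% of all genes and 11.7% of tested genes. The sequence CACCTG, the core of sites bound by Zeb factors, was in 5 of the 22 (22.7%), namely Pmvk, Lss, Msmo1, Srebf1 and Srebf2, against 22.6% of all genes and 20.8% of tested genes. The sterol element itself was in 1 of the 22, against 1.44% of all genes and 1.41% of tested genes. All motifs were searched on both strands, no match overlapped one of another motif in these windows, and a match is a description of the letters only.

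Regulators of the pathway were split in direction. Srebf1, which encodes SREBP-1, the form that mainly drives fatty acid genes (GRCm38 chromosome 11, 60199089 to 60222581, minus strand), was at 32.7, 30.3 and 32.8 FPKM in cKO 1, 2 and 3, against 37.5, 35.8 and 34.6 FPKM in control 1, 2 and 3. Every cKO library lay below every control. Its log2 fold change was -0.17 (SE 0.05, 95% interval -0.30 to -0.036, limma adjusted p = 0.206). Srebf2, which encodes SREBP-2, the form that mainly drives cholesterol genes, was at 77.3, 73.3 and 73.5 FPKM in cKO 1, 2 and 3 and at 73.8, 77.0 and 73.6 FPKM in control 1, 2 and 3. For Srebf2 cKO 1 was the highest and cKO 2 the lowest of the 6 libraries, and the 95% interval of the Srebf2 difference ran from -0.12 to 0.11 on the log2 scale.

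Scap, the escort of both SREBPs, was at 32.5, 31.5 and 32.2 FPKM in cKO 1, 2 and 3, against 30.0, 29.5 and 31.2 FPKM in control 1, 2 and 3. The cKO values were the 3 highest, by a margin of 0.37 FPKM, and the log2 fold change of 0.08 (SE 0.05) had a limma adjusted p of 0.391. Insig1, which retains SCAP and is itself an SREBP target, was at 49.5, 55.4 and 53.9 FPKM in cKO 1, 2 and 3, against 52.3, 52.3 and 45.3 FPKM in control 1, 2 and 3, with overlap. Stard4, a carrier that moves cholesterol between membranes and is also an SREBP target, was at 9.76, 9.07 and 9.996 FPKM in cKO 1, 2 and 3, against 11.8, 10.2 and 10.6 FPKM in control 1, 2 and 3. All cKO values of Stard4 lay below all controls, at a log2 fold change of -0.16 (SE 0.07, limma adjusted p = 0.295).

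**Figure D3:**
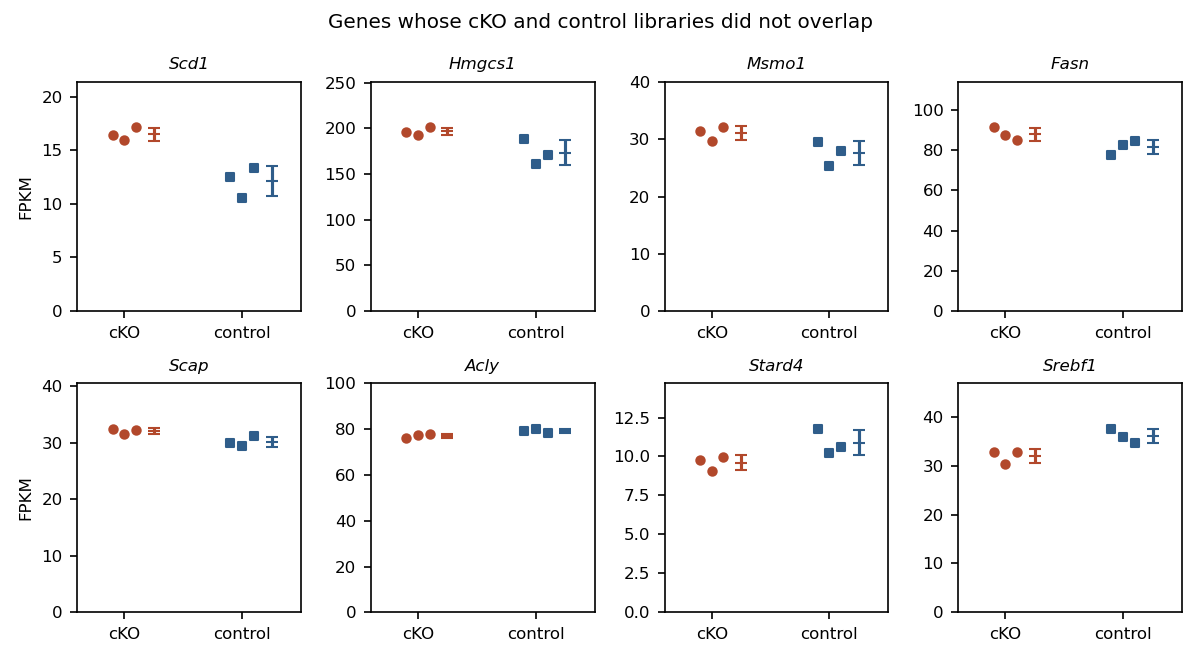
FPKM (y axes, from 0) of the 8 genes whose groups did not overlap, with cKO libraries left of control libraries and the mean with its SD beside each group. The Scd1 mean was 35.9% higher in cKO (16.5 against 12.1 FPKM), the largest relative difference of the 8, while Acly differs by 2 FPKM at a level near 78.

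Of the fatty acid enzymes, Scd1 differed most. It encodes a stearoyl-CoA desaturase, which puts the double bond into oleic and palmitoleic acid (GRCm38 chromosome 19, 44394455 to 44407879, minus strand). Scd1 was at 16.4, 15.9 and 17.1 FPKM in cKO 1, 2 and 3, against 12.5, 10.5 and 13.3 FPKM in control 1, 2 and 3, and the lowest cKO value lay 2.61 FPKM above the highest control. Group means were 16.5 ± 0.605 FPKM in cKO and 12.1 ± 1.44 FPKM in control libraries, a mean 35.9% higher in cKO. The log2 fold change was 0.42 (SE 0.09, 95% interval 0.21 to 0.63), and the adjusted p of 0.0904 missed the threshold (limma).

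Whether Scd1 passed depended on the fit. It passed with small-RNA loci left out (limma adjusted p = 0.0434), where 0.956% of loci passed as higher in cKO. It also passed with robust variance estimation (limma adjusted p = 0.0364, background 0.955%) and at a threshold of 0.1 (background 1.16%). With any 1 library left out the Scd1 estimate ran from 0.33 to 0.48 and did not pass (limma adjusted p from 0.101 to 0.232). Within the libraries numbered 1 and 2, whose labels differ in form from those of cKO 3 and control 3 (a separate deposit), it was 0.46, and within the larger of the sets of libraries that share their low-value steps 0.42. The second deposit and the smaller set each hold 1 library of each genotype, cKO 3 with control 3 and cKO 3 with control 1, and Scd1 stood higher in cKO 3 in both.

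Scd2, the desaturase that dominates in the developing brain, did not show that gap. It was at 350, 320 and 346 FPKM in cKO 1, 2 and 3, against 340, 300 and 311 FPKM in control 1, 2 and 3 (log2 fold change 0.09, SE 0.07, limma adjusted p = 0.551). Control 1 lay inside the cKO range. The level of Scd2 was 339 ± 16.7 FPKM in cKO and 317 ± 20.5 FPKM in controls, against 16.5 and 12.1 FPKM for Scd1, so the desaturase RNA of this tissue was mostly Scd2 in both genotypes. Scd1 and Scd2 are paralogs. Of the 50-base words of the Scd1 transcripts, 2.97% also occur in Scd2 transcripts and 3.42% in those of Scd3 (GENCODE M21). Because Scd2 stood so far above Scd1, this share does not bound how much of the Scd1 value could come from Scd2 reads, which was not tested.

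The enzymes upstream of the desaturases had estimates of at most 0.11 in size, and none passed. Fasn, fatty acid synthase, was at 91.4, 87.7 and 85.0 FPKM in cKO 1, 2 and 3, against 77.9, 82.4 and 84.8 FPKM in control 1, 2 and 3. The groups were apart by 0.23 FPKM only, and the log2 fold change was 0.11 (SE 0.05, limma adjusted p = 0.367). Acly, which makes cytosolic acetyl-CoA from citrate, was at 76.2, 77.3 and 77.7 FPKM in cKO 1, 2 and 3, against 79.0, 80.0 and 78.3 FPKM in control 1, 2 and 3. Here too the groups were apart, at a log2 fold change of -0.04 with an interval from -0.14 to 0.064. Acaca, acetyl-CoA carboxylase, which makes malonyl-CoA, averaged 24.4 ± 0.542 FPKM in cKO and 24.1 ± 0.0979 FPKM in controls, with an interval from -0.088 to 0.12.

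The libraries did not deviate evenly across the 28 genes. Library cKO 3 had the highest value for 11 genes, cKO 1 the lowest for 9 and control 2 the lowest for 8, and the median deviation from the mean of the 6 libraries was 0.070 for cKO 3, -0.043 for cKO 1 and -0.040 for control 2 on the log2 scale. For 7 genes (Mvk, Idi1, Fdps, Fdft1, Sqle, Tm7sf2 and Nsdhl) cKO 1 lay below every control while cKO 3 lay above every control, so the cKO libraries bracketed the control range. The median of the 28 log2 fold changes was 0.08 when cKO 1 was left out, 0.02 when cKO 2 was and 0.03 when cKO 3 was.

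**Figure D4:**
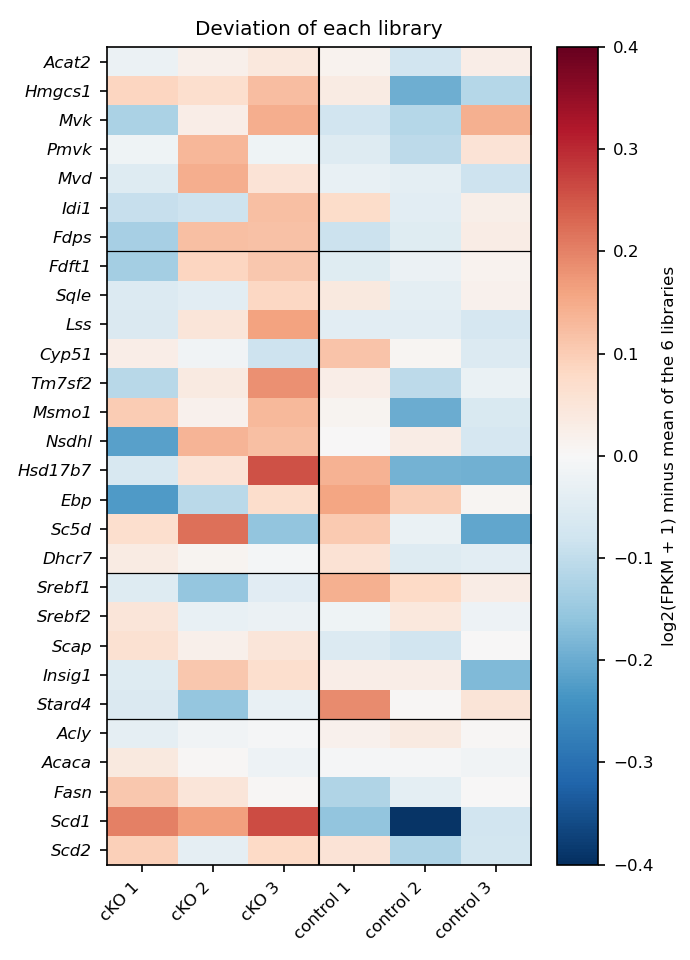
Deviation of each library (columns, cKO left of the line) from the mean of the 6 libraries in log2(FPKM + 1), for the 28 genes (rows, in blocks by role). Red is above and blue below the mean; Scd1 is red in all 3 cKO and blue in all 3 control columns, and the sterol enzymes are mostly blue in cKO 1 and red in cKO 3.

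Further genes of the 2 pathways were taken from lists made by role. Over all tested loci, 7.82% were higher and 9.79% lower at an unadjusted p under 0.05 (limma), and 47.0% of estimates were above 0. Of 27 other sterol genes (other enzymes, proteases of SREBP, liver X receptors, uptake, efflux and trafficking), none passed in limma over all loci (4 higher and 2 lower at an unadjusted p under 0.05), 11 estimates were above 0 and 16 below, and the median was -0.02. Abcg1, a sterol exporter, averaged 7.30 ± 1.04 FPKM in cKO and 5.68 ± 0.557 FPKM in controls, and Cyp46a1, the neuronal cholesterol 24-hydroxylase, 15.3 ± 0.711 and 13.4 ± 1.098 FPKM. Stard3, a sterol carrier of late endosomes, averaged 13.2 ± 0.691 FPKM in cKO and 14.9 ± 0.494 FPKM in controls.

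Of 30 other fatty acid genes, 29 were tested, Acacb being too low. None passed in limma, with 7 higher and 1 lower at an unadjusted p under 0.05, beside 7.82% and 9.79% of all tested loci. Estimates were above 0 for 22 and below for 7, beside 47.0% above over all tested loci, and the median was 0.11. In this list 10 of 29 genes had every cKO value above every control value, beside 10.3% of all tested loci. Every cKO value lay below every control value for 1 gene, beside 13.6% of all tested loci. The 10 were Me1, Acsl3, Fads2, Hacd2, Fads1, Acsl6, Acsl4, Slc25a1, Elovl7 and Hacd3. Acsl4 lies on the X chromosome, beside the difference in Xist given above. The locus of Acsl3 is named Acsl3,Utp14b, so its value may not be that of Acsl3 alone. Elovl7 lay at the filter, with 1.33, 1.02 and 1.15 FPKM in cKO and 0.979, 0.844 and 1.01 FPKM in control libraries. It reached 1 FPKM in every cKO library but, among controls, only in control 3, so its direction is partly tied to the filter. Me1, malic enzyme, which supplies NADPH for lipid synthesis, averaged 26.5 ± 0.979 FPKM in cKO and 21.9 ± 1.105 FPKM in controls (log2 fold change 0.27, SE 0.06, limma adjusted p = 0.0905), and passed at a threshold of 0.1. Fads2, the delta-6 desaturase of polyunsaturated fatty acids, averaged 151 ± 11.7 FPKM in cKO and 125 ± 9.12 FPKM in controls (0.28, SE 0.08, limma adjusted p = 0.167). Acsl3, an acyl-CoA synthetase, averaged 31.1 ± 0.6999 FPKM in cKO and 27.4 ± 0.296 FPKM in controls, and Hacd2, a dehydratase of chain elongation, 5.63 ± 0.228 and 4.69 ± 0.304 FPKM. The gene below was Fabp5, a fatty acid binding protein, at 328 ± 33.5 FPKM in cKO and 390 ± 24.4 FPKM in controls. The lists share these 6 libraries and members may vary together, and no test of a list as a whole was made.

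**Figure D5:**
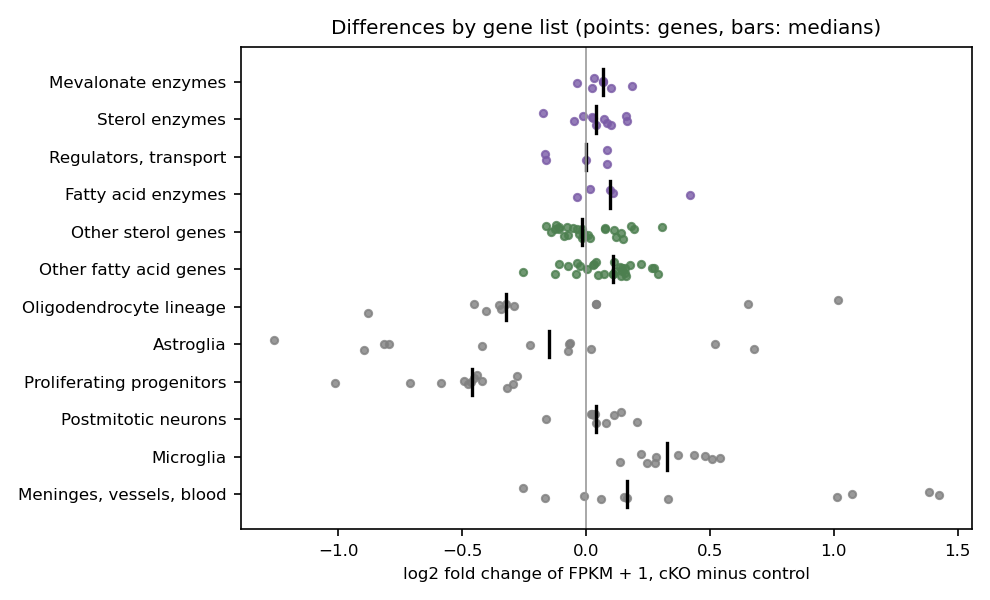
Log2 fold change of FPKM + 1 (x axis, cKO minus control) of each tested gene (points) by list (rows), with a bar at each list's median. The 4 rows of cholesterol and fatty acid synthesis genes and the 2 rows of other pathway genes gather near 0, with medians from -0.02 to 0.11. The marker rows below them together spread from -1.26 to 1.42, but postmitotic neurons only from -0.16 to 0.21.

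Several marker lists of cells in the tissue held calls and wider estimates than the lipid genes. Over all tested loci, 0.242% were called as higher and 0.331% as lower, and 47.0% of estimates were above 0. At an unadjusted p under 0.05 (limma), 7.82% of all tested loci were higher and 9.79% lower. Proliferating cells and granule neuron progenitors had all 12 markers lower in estimate, each at an unadjusted p under 0.05 (limma). Of these, 5 were called (Ccnd1, Top2a, Aurkb, Cdc20 and Mcm4). The 12 had summed levels of 253 to 269 FPKM in cKO and 354 to 387 FPKM in controls. All 10 microglia markers had estimates above 0, 9 of them at an unadjusted p under 0.05 (limma), and Csf1r was called. Aif1 reached the filter only through the cKO libraries (1.01, 1.44 and 1.12 FPKM, against 0.606, 0.955 and 0.840 FPKM in controls). The sign of Aif1 is therefore tied to the filter. Sums of the 10 were 73.3 to 80.7 FPKM in cKO and 58.5 to 60.5 FPKM in controls. Of 11 tested oligodendrocyte lineage markers 4 were above and 7 below 0 (2 higher and 6 lower at an unadjusted p under 0.05, limma). Olig1 was called as higher (log2 fold change 1.02), while Gpr17 (-0.88), Bcas1 (-0.45) and Pdgfra (-0.29), next by p and not called, had every cKO value below every control, and Olig2 (0.65), not called either, had every cKO value above. The 12 listed markers summed to 243 to 266 FPKM in cKO and 169 to 201 FPKM in controls, and without Olig1, left out after its values were seen, to 97.1 to 112 FPKM in cKO and 107 to 116 FPKM in controls. Of 12 astroglia markers 3 were above and 9 below 0 (2 higher and 5 lower at an unadjusted p under 0.05, limma). Their sums were 558 to 746 FPKM in cKO and 777 to 851 FPKM in controls. S100b was called as lower (-0.79). Aldoc (0.68) and Gja1 (0.52), next by p and not called, had every cKO value above every control, and Aqp4 (-0.90), not called, every cKO value below. Of 10 postmitotic neuron markers none was called in limma (0 at an unadjusted p under 0.05), with sums of 2471 to 2735 FPKM in cKO and 2466 to 2561 FPKM in controls. Of 11 tested markers of meninges, choroid plexus, endothelium and blood none was called (2 higher at an unadjusted p under 0.05, limma), with sums of 72.9 to 116 FPKM in cKO, highest in cKO 2, and 65.8 to 80.7 FPKM in controls. No marker was at 0 in any library. The part of these differences in the lipid gene values was not tested, and fewer cells of a type and less RNA per cell cannot be told apart in bulk tissue.

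Some loci share sequence with others, and the sources used here do not give the strand setting. Of the 50-base words in the Acat2 transcripts, 39.1% also occur in Acat3 and 11.2% on the opposite strand of Tcp1, and for Acaca 29.2% occur in Gm5182. Fdps shares 23.4% with Gm43738 on the same strand, Fdft1 17.2% with Ctsb on the opposite strand, and Idi1 17.7% with Gm13502. Hmgcs1 shares 10% with the antisense gene Gm48342, Scap 9.96% with 5830462I19Rik on the opposite strand, and Tm7sf2 9.87% with Vps51. The values of these genes are less certain to that extent, and that of Tm7sf2 beyond it, since its locus is also named for Vps51. The Scd2 locus is also named for the microRNA gene Mir5114, in which 0.22% of the Scd2 words occur.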

How the data were processed

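RNA of 3 cKO and 3 control cerebella libraries was measured by RNA-seq, and the genes and lists here were chosen with earlier results of these data known. Trizol extraction and TruSeq RNA library preparation are per the labels' protocols. CASAVA, TopHat, Cufflinks and the mm10 build are named in the submitters' processing notes. The table deposited by the authors was read as FPKM per locus, a unit inferred from the locus names that Cufflinks writes and from the range of values. The sources used here do not give versions, annotation, strand setting, scaling or depth. Library numbers are those of the titles and column names, although the description of cKO 1 carries the number 3.

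Values were taken as log2(FPKM + 1), so fold changes of low genes are understated. The 13612 loci reaching 1 FPKM in 3 or more libraries were tested with limma 3.58.1 in R 4.3.3 (trend on mean expression, two-sided), adjusted by Benjamini-Hochberg over all of them at a threshold of 0.05. Intervals are limma's 95% intervals, and list medians and counts are descriptions. Low values (under 0.1 FPKM) move in steps of 1 fragment. The ratios of these steps put control 1 with cKO 3 in one set, and controls 2 and 3 with cKO 1 and 2 in the other, larger set. These sets are inferred from the ratios alone. Coordinates, overlaps and 50-base words come from GENCODE M21 (GRCm38), and promoters from RefSeq (GRCm38.p6). Named genes were all 28, Zeb2, and from each further list the called members and up to 4 with the smallest p, except 1 that is not reported here. Xist, Eif2s3y, Pcp2, Olig2, Aif1 and the further fatty acid genes whose groups did not overlap were chosen for naming once their values had been seen. The alternatives comprised other pseudocounts, filters and scalings, the replicate block, deposit or set as a covariate or alone, small-RNA loci left out, robust variance, another threshold, and each library left out. No test on read counts was made, since values are FPKM. Python 3.11.15, numpy 2.4.6, pandas 2.3.3, scipy 1.17.1 and matplotlib 3.10.9 were used.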

Additional observations from a re-analysis of the deposited data

How the results depend on the processing

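Over 20 alternatives, the number of the 28 genes called stayed at 0 except for 1 (Scd1, 0.42 in each) with small-RNA loci left out, with robust variance estimation and at a threshold of 0.1. The median log2 fold change of the 28 lay between 0.023 and 0.078. Other sterol genes gave 0 calls throughout, and other fatty acid genes 0 except 1 (Me1) at a threshold of 0.1. Zeb2 ran from -0.95 to -0.59, and passed only with small-RNA loci left out (-0.77, limma adjusted p = 0.0457). The 78 calls over all loci became 28 without a filter, 30 at a mean of at least 5 FPKM and 22 with deposit as a covariate. In the larger set inferred from low-value steps there were 30. The calls became 329 with small-RNA loci left out, 336 with robust variance estimation and 409 at a threshold of 0.1. With 1 library left out they became 21 to 55, and the cause of these changes was not tested. The medians of all loci moved by less than 0.1 under both scalings.

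With the replicate number as a block, 15 loci were called and none of the 28. The numbers gave no sign of pairing. Deviations from the group means correlated at -0.027, 0.037 and 0.049 for numbers 1, 2 and 3, and cKO 1 correlated best with control 2. With 3 libraries a group, correlations near 0 cannot exclude pairing.

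For 17 of the 28 genes the sign held in all alternatives, and 11 genes with estimates near 0 turned. Sqle was 0.0020 and Srebf2 0.011 with median-ratio scaling, and Nsdhl -0.055 in the first deposit only. In the larger set inferred from low-value steps, Mvk was -0.064, Fdft1 -0.020, Cyp51 0.028, Nsdhl -0.020 and Srebf2 2.97e-05. With 1 library left out, estimates ran from -0.0070 to 0.043 for Acat2, -0.034 to 0.11 for Mvk, -0.11 to 0.00095 for Idi1, -0.0063 to 0.12 for Fdft1, -0.055 to 0.015 for Sqle, -0.0018 to 0.14 for Tm7sf2, -0.035 to 0.14 for Nsdhl, -0.0038 to 0.19 for Sc5d, -0.026 to 0.019 for Srebf2 and -0.00051 to 0.030 for Acaca. The unknown read depth limits the lowest of the 28 most, Hsd17b7, Ebp and Stard4.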
